A study of Homo sapiens with 4 samples.

Results

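The genes described here are 40 ribosome biogenesis factors, chosen as nucleolar processing, assembly and RNA polymerase I genes together with MYC, and taken as every probe set that the platform annotation assigns to 1 of them alone. Of the 40 genes, 32 had such a probe set, with 45 probe sets among 22215 on the array. Of these, 41 lay above the filter on low signals, at least 1 for each of the 32 genes. NOP56, DKC1, PPAN and BOP1 shared their probe sets with other genes in the annotation, no probe set was assigned to NOP58, GNL3, EBNA1BP2 or DDX18, and these 8 genes were not analysed here. The list grew out of BRIX1, whose higher signal was already known, so BRIX1 is the starting point and the question is whether its rise was shared by the rest.

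The samples were LNCaP cells, an androgen-responsive human prostate cancer line, cultured in RPMI-1640 with 10% fetal bovine serum. Cells received by Lipofectamine either a MED1 expression vector (MED1 samples, n = 2) or an empty vector (empty vector samples, n = 2), and total RNA was taken at 24 hours. MED1 belongs to Mediator, which relays signals from bound transcription factors and nuclear receptors to RNA polymerase II. Transfection was transient, the share of cells that took up a vector is not given in the sources used here, and the labels do not say whether duplicates were separate cultures. The p-values therefore rest on a spread that may be technical. Values are Affymetrix MAS5 signals, and differences are log2 fold changes of MED1 over empty vector on the log2(signal + 16) scale.

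Ribosomes are built in the nucleolus. RNA polymerase I transcribes the rRNA precursor, small nucleolar ribonucleoproteins (snoRNPs) guide its methylation and pseudouridylation, and assembly factors then fold and cleave it into the small and large subunits. The transcription factor MYC is a known activator of many of these genes, and enlarged nucleoli are a classic histological feature of prostate carcinoma.

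The labels were checked first. The dimmer of 2 MED1 probe sets read 559 and 807 in the MED1 samples, against 292 and 315 in the empty vector samples (log2 fold change 1.11, limma with Benjamini-Hochberg adjustment, adjusted p = 0.0320), while the brighter read 1172 and 1074 after MED1, against 1097 and 1011 after empty vector. All 6 luminal prostate markers measured, KLK2 and KRT18 among them, were above the filter, and none of 3 leukocyte markers was. Of 5 basal or stromal markers 3 were above it, with VIM the brightest. Of the 10 luminal probe sets, 6 had both MED1 arrays below both controls and 0 above, against 22.6% and 17.2% of all tested probe sets. None was called (limma, Benjamini-Hochberg), with 3 lower and 0 higher at an unadjusted p under 0.05. The summed signal of the luminal markers, each by its brightest probe set, was 21512 to 22894 after MED1 and 22390 to 24668 after empty vector, so the groups overlapped. That of the basal or stromal markers was 757 to 827 after MED1 and 734 to 865 after empty vector, and that of the leukocyte markers 35.5 to 50.5 after MED1 and 28.2 to 32.2 after empty vector. Any part of these markers in the members' values was not tested. The median signal per array was 79.0 and 77.4 after MED1 and 80.2 and 83.2 after empty vector.

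BRIX1 rose in MED1-transfected cells, and no other member passed the test. Among the 41 tested member probe sets, 1 was called higher and 0 lower (limma, Benjamini-Hochberg adjusted p under 0.05), where 0.293% of all 13329 tested probe sets were called, 0.105% higher and 0.188% lower. As BRIX1 was a member because of its known rise, its call says nothing of the list, and without it 0 of 40 member probe sets were called. At an unadjusted p under 0.05, 8 member probe sets passed, and 7 of 40 without BRIX1 (17.5%, against 9.20% of all probe sets). All 8 were higher and 0 lower, where the whole array had 533 higher and 693 lower. Those 8 named BRIX1, NOC3L, NOP16 and RRP1B of large subunit assembly, WDR3 and WDR43 of the small subunit, the snoRNP chaperone NOLC1 and the polymerase subunit POLR1C. Apart from BRIX1, none of these was distinguishable from replicate spread after adjustment over all probe sets. The cells were measured in bulk, so more expressing cells and more RNA per cell cannot be told apart.

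**Figure D1:**
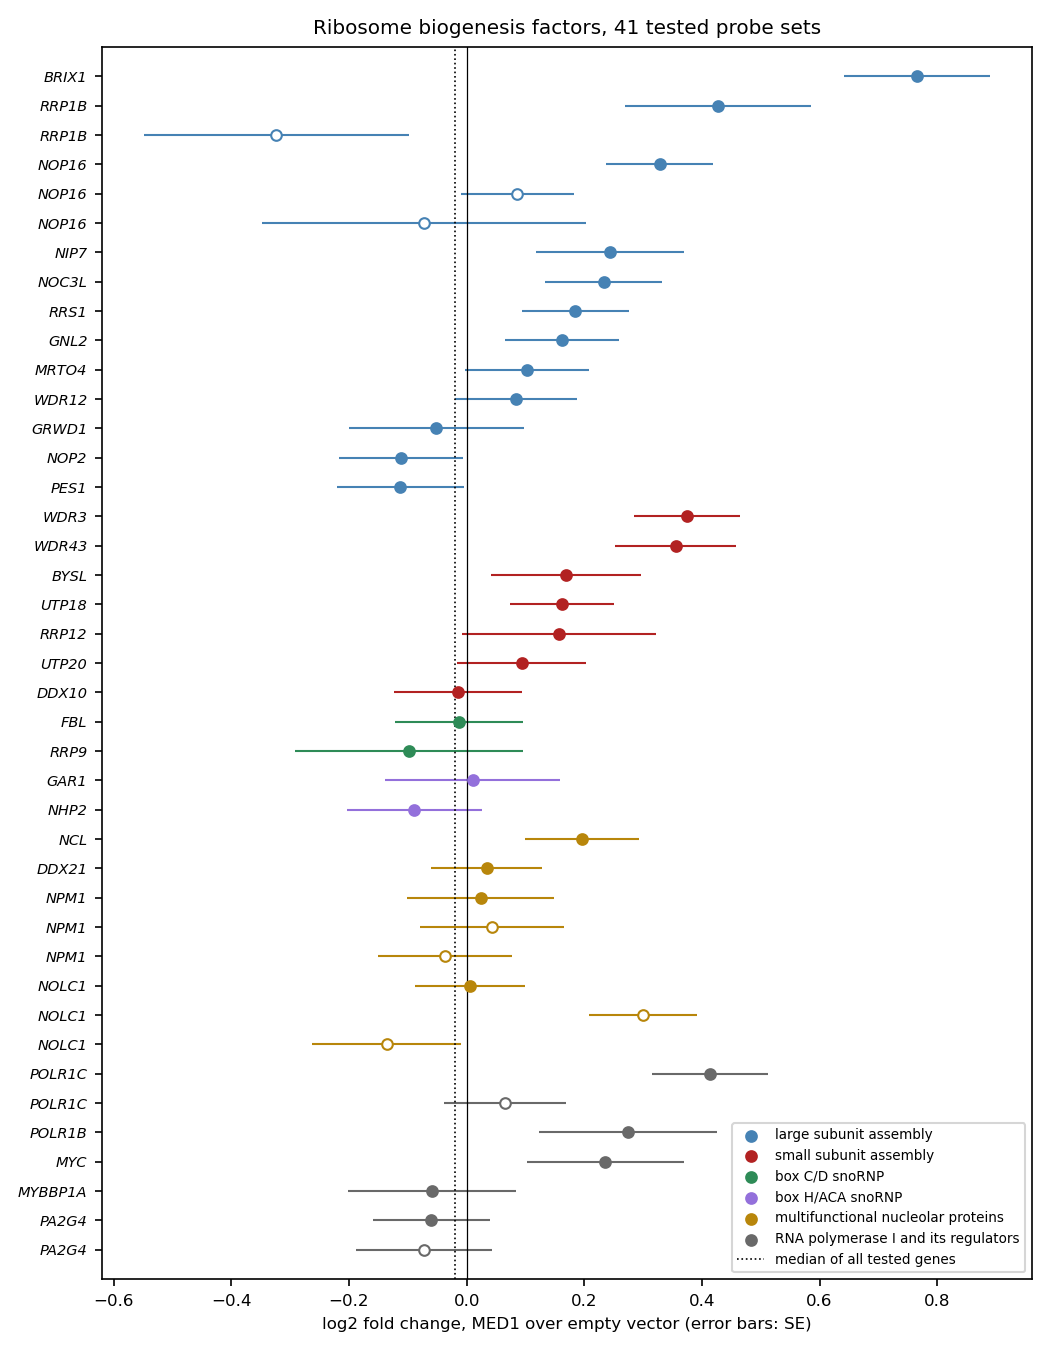
Log2 fold change of MED1 over empty vector (x axis, bars are standard errors) for each of the 41 tested probe sets (y axis), grouped and coloured by role, with filled points for the brightest probe set of a gene and open points for the others. BRIX1 stands at 0.77, the next is RRP1B at 0.43, and 27 of the 41 points lie above 0.

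BRIX1 encodes a nucleolar Brix-domain protein needed to mature the precursor of the large subunit. Its single probe set read 445 and 406 in the MED1 samples, against 243 and 244 in the empty vector samples. Both MED1 arrays were well above both controls, and the empty vector arrays nearly coincided. The log2 fold change was 0.77 ± 0.12 (SE; 95% interval 0.49 to 1.05), a 1.70-fold difference (limma, Benjamini-Hochberg adjusted p = 0.0495). The call sat at the threshold. The adjusted p was 0.0512 with a pseudocount of 1, 0.0672 without MED1 replicate 1, 0.0742 when empty vector replicate 1 was left out, 0.132 without the other empty vector array, 0.266 when dim probe sets were kept and 0.3002 when the variance trend was dropped, and its size stayed at 0.70 to 0.83 with any array left out.

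**Figure D2:**
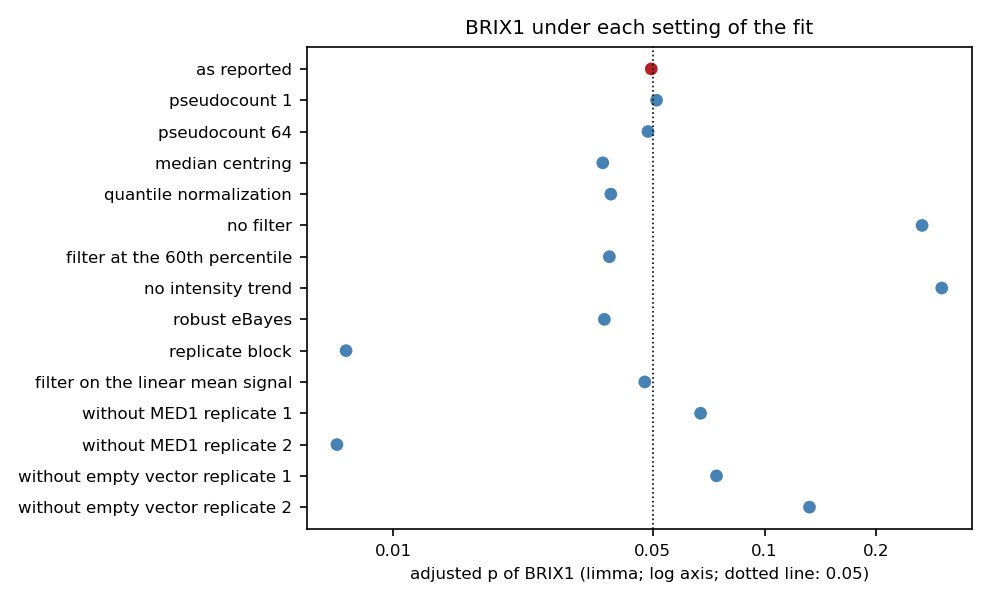
Adjusted p of BRIX1 (x axis, log scale, dotted line at 0.05) under the reported setting and each alternative of the fit (y axis). Values run from 0.00704 without MED1 replicate 2 to 0.3002 without the intensity trend, with the reported 0.0495 at the line.

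The promoters of the family offer a comparison with MYC, whose preferred binding sequence is the E-box CACGTG. In RefSeq windows of 300 bases (250 before to 50 after the gene start, GRCh38.p14), 32 members had at least 1 window, and 16 of those 32 held CACGTG, a palindrome that reads alike on both strands. By window it was 17 of 39 (43.6%), where 7.26% of all 35116 windows held it, and by gene 50%, where 13.7% of 6628 genes tested on the arrays did. The 4 windows below are shown because they set BRIX1, which rose and whose window has no CACGTG, beside windows that hold it. These are WDR43 with 1 copy (log2 fold change 0.36), UTP18 with 2 (0.16) and FBL with 1 (-0.01). Capitals mark CACGTG.
BRIX1 promoter, chr5:34915461-34915760, plus strand: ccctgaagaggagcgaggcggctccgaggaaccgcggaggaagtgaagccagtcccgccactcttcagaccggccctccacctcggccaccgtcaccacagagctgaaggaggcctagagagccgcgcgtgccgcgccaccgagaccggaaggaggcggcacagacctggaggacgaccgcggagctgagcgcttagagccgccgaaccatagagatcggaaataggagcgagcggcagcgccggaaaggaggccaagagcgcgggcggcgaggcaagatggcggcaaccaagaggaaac
WDR43 promoter, chr2:28894417-28894716, plus strand: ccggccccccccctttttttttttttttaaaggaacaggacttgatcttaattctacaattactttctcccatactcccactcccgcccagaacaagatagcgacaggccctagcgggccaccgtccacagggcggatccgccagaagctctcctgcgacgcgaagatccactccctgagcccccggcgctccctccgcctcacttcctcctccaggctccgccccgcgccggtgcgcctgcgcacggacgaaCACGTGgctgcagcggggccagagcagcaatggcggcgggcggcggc
UTP18 promoter, chr17:51260296-51260595, plus strand: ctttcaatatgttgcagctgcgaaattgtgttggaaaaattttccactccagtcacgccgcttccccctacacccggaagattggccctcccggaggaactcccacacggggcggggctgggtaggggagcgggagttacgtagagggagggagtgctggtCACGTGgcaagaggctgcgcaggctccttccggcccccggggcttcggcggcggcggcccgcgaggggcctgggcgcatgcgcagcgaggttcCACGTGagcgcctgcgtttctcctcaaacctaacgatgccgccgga
FBL promoter, chr19:39846330-39846629, minus strand: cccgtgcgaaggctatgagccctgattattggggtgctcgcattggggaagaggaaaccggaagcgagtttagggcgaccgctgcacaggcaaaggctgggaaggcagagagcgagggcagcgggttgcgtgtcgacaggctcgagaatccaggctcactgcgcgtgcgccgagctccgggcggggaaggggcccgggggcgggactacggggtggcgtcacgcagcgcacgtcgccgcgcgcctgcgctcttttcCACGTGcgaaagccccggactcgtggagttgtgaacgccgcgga
The copies in WDR43 and FBL start at positions 4 and 7, counted from 1 at the gene start, and those of UTP18 start at -89 and 5. The 32 members with a window are not the same as the 32 measured. RRP1B, MYC, NOLC1, RRS1 and RRP12 were measured but had no window, and DKC1, EBNA1BP2, GNL3, NOP56 and PPAN had a window but no value. The 14 measured members with CACGTG had a median log2 fold change of 0.06 (range -0.11 to 0.36), and the 13 with a window but without it, BRIX1 included, had 0.20 (range -0.09 to 0.77). Over all tested genes with a window the medians were -0.03 with the letters and -0.02 without. Any link between CACGTG and the fold changes was not tested. Another motif, CCGGAAGT, searched on both strands and bound by ETS factors, was in 8 of the 32 genes, and 8 of the 39 windows (20.5%), against 4.14% of all windows. It does not overlap CACGTG in sequence, and BRIX1 had neither.

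Large subunit assembly held the most members, 12 measured genes with 15 tested probe sets. BRIX1 was the 1 that passed. In 9 of the 15 the MED1 pair lay wholly above the empty vector pair and in 1 wholly below, where this held for 17.2% and 22.6% of all tested probe sets. The median log2 fold change over the 12 genes, each by its brightest probe set, was 0.17, against -0.02 over all 7957 tested genes. BRIX1, a member because of its known rise, is included in the 9 and in this median.

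NOP16, a nucleolar protein of pre-60S particles, read 2649 and 2531 in the MED1 samples, against 2116 and 2005 in the empty vector samples by its brightest probe set. The groups did not overlap, and the log2 fold change was 0.33 ± 0.09 (limma, Benjamini-Hochberg adjusted p = 0.302). Its other tested probe sets gave 0.09 and, at low signals, -0.07, so the probe sets of this gene disagreed. NOC3L, which acts in early assembly and export of the large subunit precursor, read 800 and 802 in the MED1 samples, against 693 and 666 in the empty vector samples. Both MED1 values were higher, with a log2 fold change of 0.23 ± 0.10 (limma adjusted p = 0.514).

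RRP1B, a nucleolar protein that also targets protein phosphatase 1, came closest to BRIX1 in size by its brighter probe set. That probe set read 3319 and 2235 in the MED1 samples, against 2017 and 2027 in the empty vector samples. Most of that difference came from MED1 replicate 1: the log2 fold change of 0.43 ± 0.16 (limma adjusted p = 0.459) became 0.14 without it. Its dimmer probe set gave -0.32 ± 0.22, reading 117 and 121 after MED1, against 118 and 197 after empty vector. The probe sets therefore differed in sign with all arrays in, but the dimmer gave 0.01 without empty vector replicate 2. Neither passed.

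The PeBoW complex, made of PES1, BOP1 and WDR12, processes rRNA of the large subunit, and neither of its measured subunits passed. PES1 read 496 and 522 in the MED1 samples, against 535 and 568 in the empty vector samples. It was the 1 member probe set with both MED1 arrays below both controls, by a log2 fold change of -0.11 ± 0.11 (limma adjusted p = 0.795). WDR12 read 1155 and 1331 in the MED1 samples, against 1145 and 1195 in the empty vector samples, and the groups overlapped. The remaining genes were also small in their differences: NIP7 (0.24), RRS1 (0.18), GNL2 (0.16) and MRTO4 (0.10) had both MED1 arrays above both controls, and NOP2 (-0.11), an rRNA methyltransferase, and GRWD1 (-0.05) had overlapping groups.

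Of 7 small subunit genes, 0 passed (limma, Benjamini-Hochberg), with 2 of 7 probe sets at an unadjusted p under 0.05 (9.20% of all probe sets), and the median log2 fold change was 0.16. The MED1 pair lay wholly above the controls in 4 of their 7 tested probe sets and wholly below in 0, against 17.2% and 22.6% of all tested probe sets. WDR3, a WD-repeat subunit of the small subunit processome, read 1956 and 1874 in the MED1 samples, against 1486 and 1459 in the empty vector samples. The MED1 arrays stood clear of the controls, at a log2 fold change of 0.38 ± 0.09, or 1.30-fold (limma adjusted p = 0.238). WDR43, which joins the processome with the early-transcribed precursor, read 1215 and 1121 in the MED1 samples, against 959 and 861 in the empty vector samples. The groups did not overlap here either (0.36 ± 0.10, limma adjusted p = 0.323). UTP18 and UTP20, further processome proteins, gave 0.16 and 0.09 without overlap. BYSL (0.17), the small subunit export factor RRP12 (0.16) and the helicase DDX10 (-0.01, the lowest of these genes) had overlapping groups.

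The snoRNP proteins showed no difference beyond replicate spread. FBL, the methyltransferase of box C/D snoRNPs, read 6923 and 7801 in the MED1 samples, against 7028 and 7831 in the empty vector samples. Its groups overlapped almost completely, and the 95% interval of the log2 fold change ran from -0.26 to 0.23. RRP9, specific to the U3 snoRNP, gave -0.10 ± 0.19 at signals near 100.

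Of the box H/ACA proteins, which guide pseudouridylation, NHP2 read 7170 and 8433 in the MED1 samples, against 7875 and 8689 in the empty vector samples (log2 fold change -0.09, 95% interval -0.35 to 0.17). GAR1 read 932 and 879 in the MED1 samples, against 1066 and 757 in the empty vector samples, so its controls enclosed both MED1 values. All 4 snoRNP probe sets overlapped between groups, and their 95% intervals reached no higher than 0.34.

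Nucleolin (NCL), an abundant nucleolar protein of rRNA transcription and processing, read 9670 and 9677 in the MED1 samples, against 8336 and 8553 in the empty vector samples. The groups were apart, but by only 0.20 ± 0.10 on the log2 scale (limma adjusted p = 0.587). Nucleophosmin (NPM1), a nucleolar chaperone, read 13212 and 15378 in the MED1 samples, against 13028 and 15085 in the empty vector samples by its brightest probe set. Its 3 probe sets, all of the kind marked as matching several transcripts, gave 0.02, 0.04 and -0.04 with overlapping groups.

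NOLC1, a chaperone of snoRNPs, depended on the probe set. The brightest read 6097 and 6092 in the MED1 samples, against 6016 and 6127 in the empty vector samples, a log2 fold change of 0.01 ± 0.09. Another read 1451 and 1500 in the MED1 samples, against 1175 and 1216 in the empty vector samples (0.30 ± 0.09, limma adjusted p = 0.360), and the dimmest gave -0.14. The nucleolar helicase DDX21 gave 0.03 ± 0.09.

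**Figure D3:**
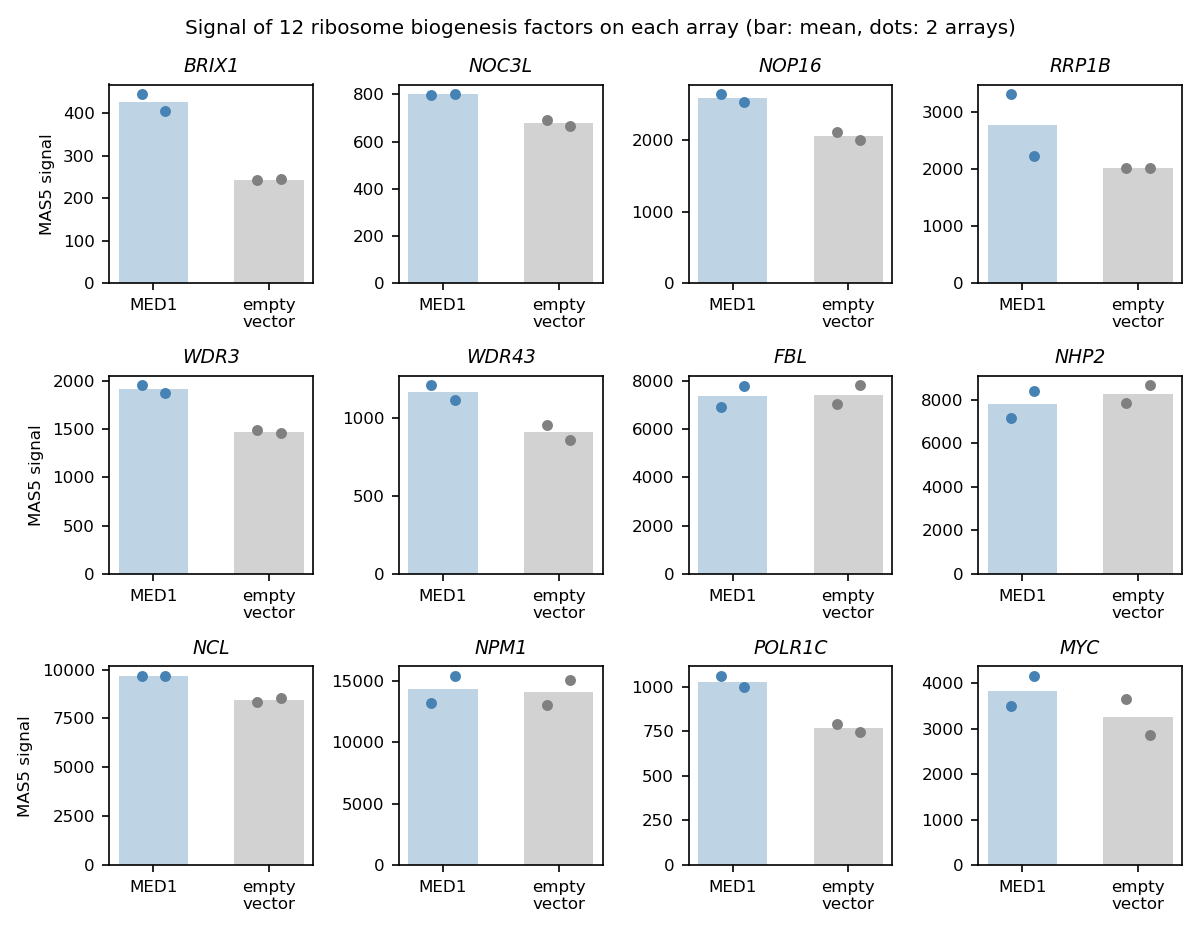
MAS5 signal (y axis, linear from 0) of 12 ribosome biogenesis factors by their brightest probe set, with MED1 left and empty vector right in each panel, bars for the mean and dots for the 2 arrays. BRIX1, NOC3L, NOP16, RRP1B, WDR3, WDR43, NCL and POLR1C have both MED1 dots above both empty vector dots, and FBL, NHP2, NPM1 and MYC overlap.

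POLR1C, a subunit shared by RNA polymerases I and III, read 1059 and 996 in the MED1 samples, against 789 and 745 in the empty vector samples. Both MED1 arrays were higher, by a log2 fold change of 0.41 ± 0.10, or 1.33-fold (limma, Benjamini-Hochberg adjusted p = 0.233, the lowest among members after BRIX1). Its other probe set gave 0.07 ± 0.10 with overlapping groups. POLR1B, a core subunit of RNA polymerase I, read 248 and 209 in the MED1 samples, against 179 and 193 in the empty vector samples (0.27 ± 0.15, limma adjusted p = 0.610), again without overlap. MYBBP1A and PA2G4, nucleolar regulators of rRNA transcription, gave -0.06 each by their brightest probe sets.

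MYC read 3497 and 4155 in the MED1 samples, against 3657 and 2859 in the empty vector samples. Empty vector replicate 1 lay above MED1 replicate 1, so the groups overlapped. The log2 fold change was 0.24 ± 0.13 (95% interval -0.07 to 0.54, limma adjusted p = 0.616), and it ran from 0.06 to 0.41 as single arrays were left out.

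Across the members as a whole, the MED1 pair lay wholly above the empty vector pair in 17 of 41 tested probe sets (41.5%), against 17.2% of all tested probe sets, and wholly below in 1 (2.44%), against 22.6%. Without BRIX1 these were 16 of 40 (40%) and 1 (2.5%). Above the 60th percentile of signal, 17 of 38 member probe sets (44.7%, BRIX1 included) were above and 1 (2.63%) below, against 18.5% and 22.6% of all 8886. The median log2 fold change over the 32 genes was 0.13, and 0.10 without BRIX1, against -0.02 over all tested genes. Of the 32 values 23 were positive, and 22 of the 31 without BRIX1, where 3622 of all 7957 tested genes were. These values describe a list chosen with results known. They also depended on single arrays, the median on MED1 replicate 2 alone. The median was 0.14 without MED1 replicate 1, 0.13 without empty vector replicate 1 and 0.13 without empty vector replicate 2. Without MED1 replicate 2 the median was 0.05, and 17 member probe sets lay above and 10 below (32.0% and 38.6% of all probe sets). Without empty vector replicate 1 these counts were 20 and 12 (33.4% and 41.7%), without MED1 replicate 1 they were 27 and 1 (30.3% and 35.9%), and without empty vector replicate 2 they were 28 and 3 (31.9% and 35.9%).

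**Figure D4:**
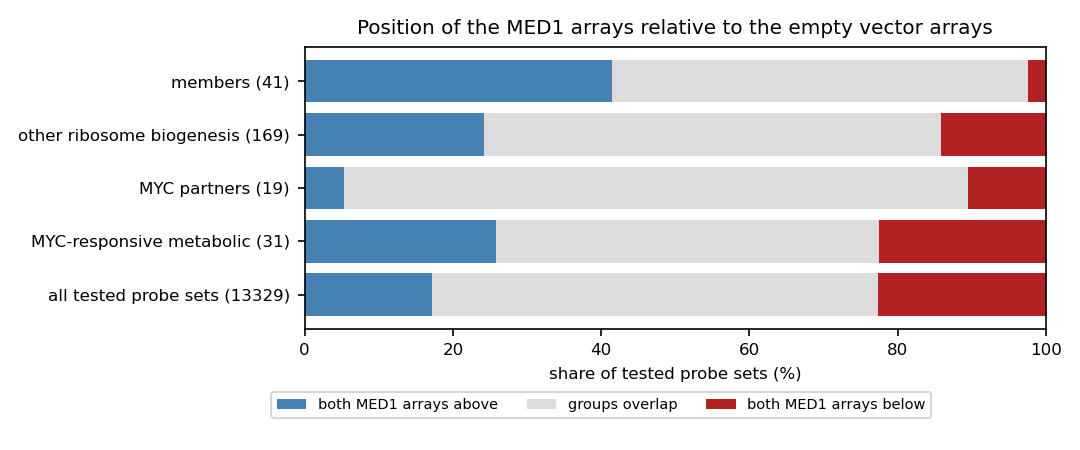
Share of tested probe sets (x axis, percent) in which the MED1 pair lay wholly above the empty vector pair, overlapped with it, or lay wholly below, for the members, 3 sets of other genes and all tested probe sets (y axis, number of probe sets in brackets). The members have 41.5% above and 2.44% below, against 17.2% and 22.6% over the whole array. BRIX1 is among the members (40% above and 2.5% below without it), and the set labelled MYC partners also holds MYC antagonists.

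The levels on each array show how far the members varied. Relative to the empty vector mean of each gene, the median of the other 31 genes stood at 0.05 and 0.14 (log2) in the MED1 samples, against -0.02 and 0.02 in the empty vector samples. BRIX1 stood at 0.83 and 0.70 in the MED1 samples, against -0.0019 and 0.0019 in the empty vector samples. As the list was built around BRIX1, its place above the others is a description and was not tested.

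**Figure D5:**
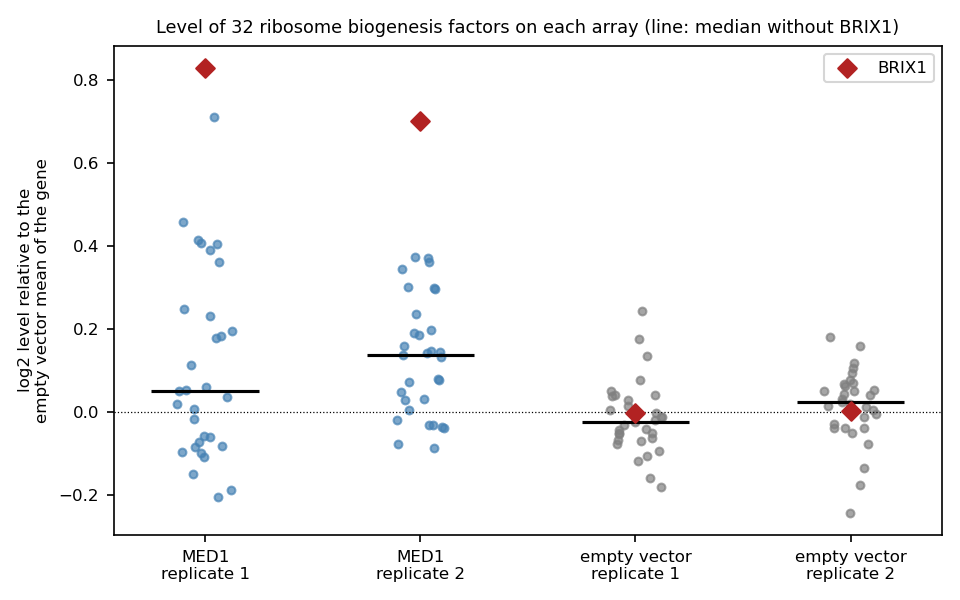
Log2 level relative to the gene's empty vector mean (y axis) on each of the 4 arrays (x axis) for 32 genes, with BRIX1 as a diamond and a line at the median of the other 31. BRIX1 stands at 0.83 and 0.70 on the MED1 arrays, where the medians of the others are 0.05 and 0.14.

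Another 152 ribosome biogenesis genes that are not members were compared in the same fit, of which 123 were tested with 169 probe sets. In these 5 lists 0 passed in either direction (limma, Benjamini-Hochberg). At an unadjusted p under 0.05 (limma), 10 were higher (5.92%) and 2 lower (1.18%). Over all 11831 tested probe sets that name 1 gene, these shares were 3.83% and 5.46%. Their median log2 fold change was 0.05. Both MED1 arrays lay above both controls in 41 probe sets (24.3%) and below in 24 (14.2%), against 17.2% and 22.6% of all tested probe sets.

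Within them, 36 further large subunit genes had a median of 0.08, and medians and ends of each list use a gene's brightest probe set. Of the 46 large subunit probe sets 6 were higher and 0 lower at an unadjusted p under 0.05 (limma), where 9.20% of all probe sets passed in either direction. The large subunit genes ran from NLE1 (-0.25) to TMA16 (0.65 ± 0.23, limma adjusted p = 0.442). TMA16 read 499 and 274 in the MED1 samples, against 222 and 238 in the empty vector samples, most of the difference from MED1 replicate 1. The lowest single probe set was a dim one of GTPBP4 (-0.42), whose brightest gave 0.36. The 42 small subunit genes had a median of 0.06, from NOP14 (-0.32) to NOL10 (0.37 with overlapping groups). The 18 genes of the RNA polymerase I machinery had 0.06, from the rDNA transcription factor UBTF (-0.30) to TAF1A (0.35), a subunit of its selectivity factor. The 18 rRNA processing nucleases had 0.01, with the exosome subunits EXOSC5 (-0.17) and EXOSC2 (0.27) at the ends. The 9 snoRNP assembly genes had 0.01, from NOP10 (-0.20) to COIL (0.18), while a dimmer SHQ1 probe set gave -0.30 and its brightest 0.09.

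Among genes of the MYC network, antagonists included, and MYC-responsive metabolic genes, no gene passed the test. Of 10 tested network genes 0 passed (limma, Benjamini-Hochberg). Of their 19 probe sets, 1 was higher and 1 lower (5.26% each) at an unadjusted p under 0.05 (limma). The shares over all tested probe sets that name 1 gene were 3.83% higher and 5.46% lower. A positive log2 fold change was seen in 15 of the 19, where 46.5% of all tested probe sets had one, but many were repeated probe sets of MAX and MLX. By gene 7 of 10 were positive, with a median of 0.03, where 3622 of all 7957 tested genes were positive. The MED1 pair lay wholly above the controls in 1 probe set (5.26%) and wholly below in 2 (10.5%), against 17.2% and 22.6% of all tested probe sets. MXI1, an antagonist of MYC, read 1110 and 1163 in the MED1 samples, against 1432 and 1484 in the empty vector samples (log2 fold change -0.36 ± 0.09, limma adjusted p = 0.270). MXD3, a member of the same antagonist family, read 225 and 225 in the MED1 samples, against 144 and 159 in the empty vector samples (0.53 ± 0.15, adjusted p = 0.302). Both had separate groups, in opposite directions, and neither passed. Of 18 MYC-responsive metabolic genes 0 passed. At an unadjusted p under 0.05 (limma), 2 of 31 probe sets were higher and 2 lower (6.45% each), against the same 3.83% and 5.46%. By the brightest probe set of each gene the median was 0.0035, from the serine hydroxymethyltransferase SHMT2 (-0.38) to the purine synthesis enzyme PPAT (0.15). A dimmer GART probe set gave 0.54, where the brightest gave 0.05.

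Member probe sets under the filter were 4 in number, from NOP16, RRP12 and UTP18, with signals of 4.18 to 41.3. The RRP12 probe set among them that is marked as matching several transcripts read 32.0 and 39.4 in the MED1 samples, against 10.3 and 4.18 in the empty vector samples. The bright RRP12 probe set read 334 and 457 in the MED1 samples, against 385 and 317 in the empty vector samples, with overlapping groups.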

How the data were processed

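Per the submitters' processing notes, the authors deposited MAS5 signal intensity values, 1 per probe set and array on a linear scale, with no version given. On every array the mean after trimming 2% at each end was 500.2, so no scaling was added. Per the labels' protocols, cRNA was made from 200 ng of total RNA. Groups come from the titles, and the description field, which names the MED1 vector for all 4 arrays, was not used.

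Of 22277 probe sets, 62 controls were left out, and 19064 of the rest name 1 gene. Symbols were updated to RefSeq (GRCh38.p14). Intensities were transformed to log2(value + 16), and 8886 probe sets under the 40th percentile of the mean on that scale (a signal of 31.0) were left out. The planned filter did not name a scale. The linear mean was run first, and the log2 mean was taken as the reported setting after results under both had been seen. The linear mean gave 41 calls over the array, against 39, and an adjusted p of 0.0476 for BRIX1, against 0.0495. The remaining 13329 were fitted with limma 3.58.1 in R 4.3.3 (eBayes with intensity trend, two-sided, Benjamini-Hochberg, threshold 0.05). A gene's median uses its brightest tested probe set. On simulated data the fit recovered changes put in, at a rate not given here by size. More probe sets were changed there than were called in these arrays, which loosens the adjusted threshold, so that rate does not carry over. The changes put in were all larger than the difference of any member but BRIX1. The simulation therefore does not show that differences of the size seen in the other members would be called. The share of false calls was near the threshold when variances were drawn from limma's fitted prior, and above it when they were set to the fitted posterior variances, so a call at the threshold is less firm than its adjusted p.

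Members and lists were chosen with earlier results of these data known. Genes named are BRIX1, MYC, MED1, complex cores, the extremes of each role or list, and members whose probe sets disagree. Others named in the report (NOC3L, NIP7, RRS1, GNL2, MRTO4, GRWD1, BYSL, RRP12, UTP18, UTP20, DDX21, MYBBP1A, WDR43) fall outside that rule or fill in the remaining members. Alternatives covered pseudocount, scaling, filter, variance model, replicate block and each array left out. No detection calls were used, and arrays have no read depth, so their number limits precision.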

Additional observations from a re-analysis of the deposited data

How the results depend on the processing

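BRIX1 was the 1 member called with a pseudocount of 64, either other scaling, the filter at the 60th percentile or on the linear mean, robust eBayes, an adjusted p of 0.1, and probe sets without a suffix. With a pseudocount of 1, no filter or no intensity trend, 0 member probe sets were called by limma. At an unadjusted p under 0.05 (limma), 8, 9 and 6 passed, against 1219, 1680 and 1137 over the whole array. BRIX1 was then at 0.80 (limma adjusted p = 0.0512), 0.77 (0.266) and 0.77 (0.3002). With an array left out, BRIX1 lay at 0.70 to 0.83, the lone array being assumed to vary like the other group. In the reported fit, 8 of 41 member probe sets passed an unadjusted p under 0.05 (limma), against 1226 of 13329 over the whole array. The member median was 0.18 with median centring, which moved all genes to 0.03, and 0.0515 to 0.139 with an array left out. With an array left out, MED1 arrays lay above the controls in 17 to 28 member probe sets and below in 1 to 12. Over all tested probe sets the shares were 30.3% to 33.4% above and 35.9% to 41.7% below. Among the other lists, 0 were called by limma. At an unadjusted p under 0.05 (limma), 18 of their 219 probe sets passed, where 9.20% of all probe sets did. Over the whole array 39 were called, against 0 with no filter (1680 unadjusted), 5 without the trend, 62 at an adjusted p of 0.1, 1226 unadjusted and 25 to 216 with an array left out. With the replicate block it was 239, with 4 members (BRIX1, NOP16, POLR1C and WDR3) and 4 of the other lists. Deviations from the group mean correlated at 0.12 between the arrays numbered 1, over all tested probe sets. With duplicates the arrays numbered 2 give the same value, and same-numbered arrays share only a number. Beyond looser rules and fewer arrays, the cause was not tested. BRIX1 stayed positive under every setting tried.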
